A study of Mus musculus with 4 samples.

Results

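The 33 genes described here carry out or respond to glycolysis and low oxygen. They were taken as a fixed list of symbols, set with earlier results of these data known. All 33 were found among the 32285 genes of the count tables. The list holds the transcription factor subunit Hif1a, the glucose transporters Slc2a1 and Slc2a3, the enzymes of glycolysis from Hk1, Hk2 and Hk3 to Ldha and Ldhb, and the lactate transporters Slc16a1 and Slc16a3. It also holds Pfkfb3 and Pfkfb4, which set the level of fructose 2,6-bisphosphate, the pyruvate dehydrogenase kinase Pdk1, and the hypoxia responders Bnip3, Egln3, Ankrd37, Ndrg1, Adm, P4ha1 and P4ha2.

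The study asked how low-dose irradiation of the chest changes lungs with acute inflammation, and measured it by droplet sequencing of single cells (10x Genomics, 3' ends, molecules counted by unique molecular identifiers, UMIs). There were 4 libraries with 1 library in each group, all from male wild-type C57BL/6 mice. The PBS mice received saline through the trachea. The LPS mice received 200 µg of lipopolysaccharide, a bacterial cell wall component (E. coli O55:B5), by the same route. In the PBS+RT and LPS+RT groups 1 Gy of X-rays was given to the thorax a day later, and all lungs were taken 48 h after the injection, which is 24 h after irradiation. How many mice went into a library is not given in the sources used here, and the cells were enriched for mononuclear cells on a density gradient, which limits what the cell makeup can show. With 1 library per group there is no replicate spread and no test, so no p-value is given. Every interval below covers counting error only, and group and library cannot be told apart.

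After filtering, 8924 cells remained in the PBS library and 6238 in PBS+RT, and 8983 in LPS and 9721 in LPS+RT, with library medians of 4293 to 8584 UMIs per cell. Clustering without the 33 genes and without the related gene lists gave 59 clusters. Fixed markers named all but 11 of them, in 19 classes, and between 18.1% and 33.2% of the cells of a library stayed unnamed. Alveolar macrophage-like, endothelial-like, fibroblast-like, T cell-like, B cell-like and NK cell-like cells passed the marker rule with every marker on their list. Neutrophil-like cells passed with 11 of 13 markers, and the dendritic cell-like class with 17 of 19. The platelet-like class passed with 5 of 7 markers, and endothelial genes were high in it. Of their endothelial-like levels in PBS, Cldn5 stood there at 28.9% and Egfl7 at 69.2%. The part of endothelial RNA in the values of this class was not tested. Levels are counts per 1000000 UMIs of a class in a library (CPM), and a class under 100 cells in a library is left out there.

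Glycolysis splits glucose into pyruvate in the cytosol and yields ATP without oxygen. Lactate dehydrogenase turns pyruvate into lactate, which leaves the cell through monocarboxylate transporters. The protein HIF-1α is degraded when oxygen is present, after hydroxylation by the Egln enzymes, and when it is stable it binds DNA and raises transcription of most glycolytic genes. Macrophages stimulated with LPS are known for induced Hif1a transcription through NF-κB and for a shift towards glycolysis, while resting alveolar macrophages rely largely on oxidative metabolism.

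The core letters that HIF-1 recognises, ACGTG, were searched on both strands in the 250 bases before each RefSeq transcription start (assembly GRCm38.p6). An entry was found for 31 of the 33 genes, with 44 promoters in all. The letters occurred in 21 of these 44 promoters (47.7%) and in 16.6% of all 32851 promoters of the same length. Longer CACGTG motifs, which hold the core on both strands and are also bound by other factors, occurred in 6 of the 44 and in 6.0% of all. A match was found for 18 of the 31 genes and for 18.5% of all genes. Among the genes without a match were Eno1, Gapdh, Tpi1 and Pfkl, which are also named often in the results. Below are 6 promoters, chosen from those with a match because the results name their genes. They run 5′ to 3′ on the strand of the gene, with the matches in capitals.
Hif1a, chr12:73907617-73907866, + strand: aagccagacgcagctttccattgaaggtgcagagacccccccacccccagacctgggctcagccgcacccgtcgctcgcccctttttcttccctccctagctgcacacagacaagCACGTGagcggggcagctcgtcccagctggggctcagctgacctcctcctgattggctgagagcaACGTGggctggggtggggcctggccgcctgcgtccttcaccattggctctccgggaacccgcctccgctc
Slc2a1, chr4:119108495-119108744, + strand: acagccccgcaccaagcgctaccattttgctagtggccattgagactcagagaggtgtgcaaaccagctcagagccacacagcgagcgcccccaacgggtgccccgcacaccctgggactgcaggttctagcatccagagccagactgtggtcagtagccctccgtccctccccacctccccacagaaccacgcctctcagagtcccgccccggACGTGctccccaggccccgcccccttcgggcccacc
Hk2, chr6:82774455-82774704, - strand: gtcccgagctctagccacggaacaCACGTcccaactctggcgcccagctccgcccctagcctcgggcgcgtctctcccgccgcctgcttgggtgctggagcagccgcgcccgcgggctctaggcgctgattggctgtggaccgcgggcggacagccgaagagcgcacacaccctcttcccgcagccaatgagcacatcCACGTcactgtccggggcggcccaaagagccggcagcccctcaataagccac
Ldha, chr7:46845554-46845803, + strand: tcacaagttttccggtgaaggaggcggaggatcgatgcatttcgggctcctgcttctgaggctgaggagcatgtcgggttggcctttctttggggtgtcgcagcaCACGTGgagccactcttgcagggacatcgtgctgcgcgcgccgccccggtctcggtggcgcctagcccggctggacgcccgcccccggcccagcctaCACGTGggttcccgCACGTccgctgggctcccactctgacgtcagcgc
Pfkfb3, chr2:11502091-11502340, - strand: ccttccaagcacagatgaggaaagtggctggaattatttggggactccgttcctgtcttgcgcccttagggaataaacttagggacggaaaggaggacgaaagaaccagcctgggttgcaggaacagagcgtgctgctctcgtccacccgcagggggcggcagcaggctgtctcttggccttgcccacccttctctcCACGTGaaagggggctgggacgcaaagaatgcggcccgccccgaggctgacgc
Ankrd37, chr8:45999851-46000100, - strand: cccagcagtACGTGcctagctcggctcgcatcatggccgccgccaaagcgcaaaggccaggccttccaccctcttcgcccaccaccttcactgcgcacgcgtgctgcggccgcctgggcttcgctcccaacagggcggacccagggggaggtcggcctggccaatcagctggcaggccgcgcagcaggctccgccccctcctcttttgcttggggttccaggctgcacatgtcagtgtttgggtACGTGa
In Ldha, the lactate dehydrogenase A gene, 5 matches were found, of which 4 lie in a pair of CACGTG motifs. In the glucose transporter gene Slc2a1 the single match begins 36 bases before the start, in Hk2 the nearer match begins 52 bases before it, and in Ankrd37 the nearer one begins 6 bases before it. A match of letters is a description of the sequence and shows no binding.

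The genes were spread unevenly over cell types. Among the named classes Hif1a was highest in T cell-like cells in each of the 4 libraries, at 124, 197, 306 and 197 CPM in PBS, PBS+RT, LPS and LPS+RT. The next class in PBS and in LPS was alveolar macrophage-like cells, at 98.7 and 255 CPM, with intervals apart from those of T cell-like cells. In PBS+RT the neutrophil-like cells, at 153 CPM, overlapped them. Hk2, the inducible hexokinase that phosphorylates glucose at the outer mitochondrial membrane, was highest in fibroblast-like cells in each library, at 147, 133, 347 and 221 CPM. Adm, which encodes the vasodilator peptide adrenomedullin, was found at a high level only in fibroblast-like cells, at 129, 66.0, 101 and 104 CPM, while the next class in a library reached at most 14.4 CPM. Aldoc, a second aldolase, was highest in alveolar macrophage-like cells at 30.2, 34.6, 26.3 and 46.9 CPM, and so was Pfkfb4 at 88.7, 71.7, 51.7 and 60.5 CPM. Neutrophil-like cells were the highest named class for Hk3, the hexokinase of myeloid cells, in the 3 libraries where they numbered at least 100, with 85.9, 81.0 and 92.6 CPM in PBS+RT, LPS and LPS+RT. Egln3, the prolyl hydroxylase that HIF itself induces, was also highest there, at 10.1, 40.8 and 27.6 CPM. T cell-like cells were highest for Pdk1, which shuts pyruvate out of the citric acid cycle, at 76.2, 81.4, 42.8 and 58.8 CPM. They were also highest for the lactate transporter Slc16a1, at 26.0, 26.5, 31.7 and 34.3 CPM, where in LPS the fibroblast-like cells overlapped them at 31.1 CPM. Among the classes with at least 100 cells in PBS, nonclassical monocyte-like cells were highest for the lactate exporter Slc16a3, at 221 CPM against 22.9 in the next class. Neutrophil-like cells (75 in PBS) and classical monocyte-like cells (88 in PBS) were under that limit and were not ranked there.

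The core enzymes of the pathway shared much of their order. Gapdh, which oxidises glyceraldehyde 3-phosphate, was highest among named classes in alveolar macrophage-like cells in PBS (657 CPM), LPS (1071 CPM) and LPS+RT (909 CPM). In PBS+RT these cells (406 CPM) and neutrophil-like cells (446 CPM) had overlapping intervals. Aldoa and Ldha were highest among named classes in alveolar macrophage-like cells in all 4 libraries. Over the 46 combinations of class and library with at least 100 cells, the genes most alike in level were Gapdh and Pgk1, which catalyse neighbouring steps, with Pearson's r of 0.923 on the log2(CPM + 10) scale. Aldoa and Pgam1 followed with 0.912, and Hk3 and Slc16a3 with 0.895. The gene most like Hif1a was Eno1, with r of 0.722, and Eno1 was also the gene most like Slc2a1, with r of 0.706. These points share libraries and differ in depth, so the coefficients are descriptions only.

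Cell classes differed in their isozymes. Of all hexokinase UMIs of endothelial-like cells, Hk1, the constitutive form, made up 91.6% in PBS and 96.9% in PBS+RT, and 92.5% in LPS and 92.6% in LPS+RT. Fibroblast-like cells were the reverse, with Hk2 at 87.7%, 81.7%, 91.5% and 90.8%. Alveolar macrophage-like cells also held mostly Hk2, at 72.4%, 77.0%, 77.9% and 75.6%. T cell-like cells lay between these, with Hk1 at 71.3%, 88.7%, 57.5% and 63.4%. In neutrophil-like cells Hk3 gave 53.1% in PBS+RT, against 46.0% in LPS and 62.8% in LPS+RT. The other families also differed. Ldhb, the subunit that favours the use of lactate, made up 20.6% of lactate dehydrogenase UMIs in fibroblast-like cells in PBS and 9.90% in LPS. For phosphofructokinase, the share of the liver form Pfkl in alveolar macrophage-like cells was 11.3% in PBS and 8.43% in PBS+RT, and 33.1% in LPS and 19.2% in LPS+RT, with the platelet form Pfkp making up nearly all of the rest. The muscle form Pfkm and the neuronal enolase Eno2 reached the minimum level for a comparison in no class, with a highest level of 15.4 CPM for Pfkm and 10.5 CPM for Eno2.

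**Figure D1:**
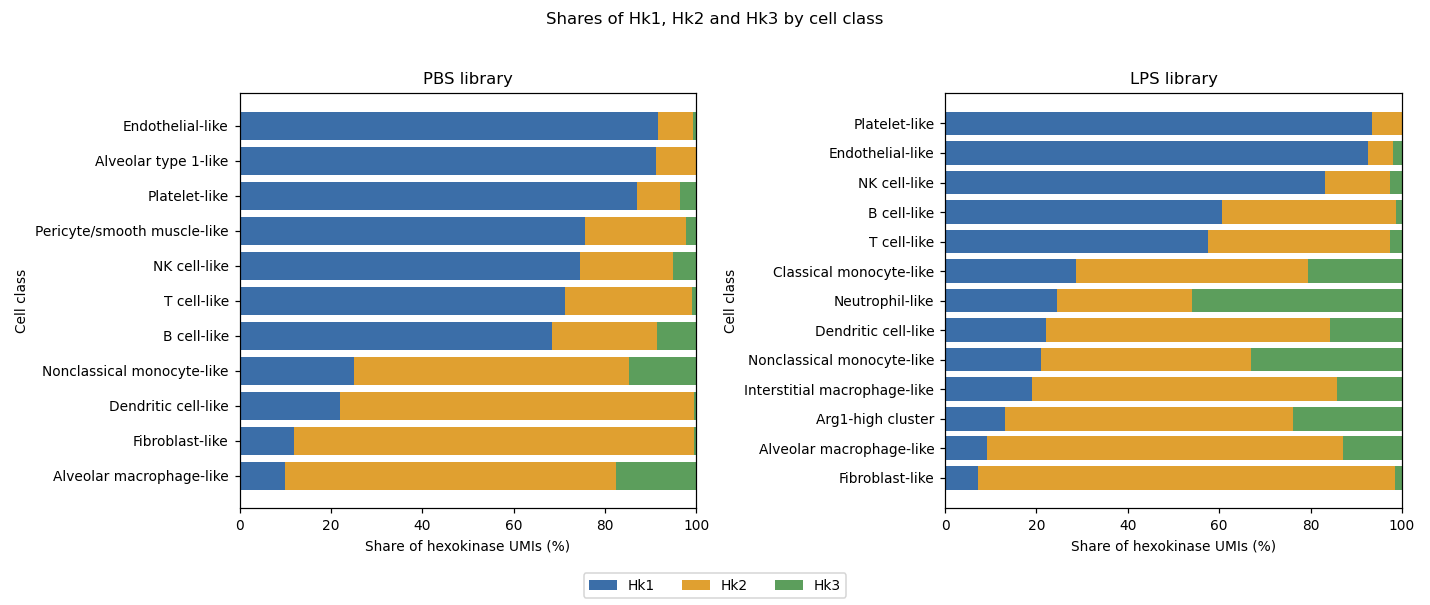
Shares of Hk1, Hk2 and Hk3 among the hexokinase UMIs of each class (x axis, percent) in the PBS library (left) and the LPS library (right), with classes on the y axis and an unnamed cluster of the LPS library, high in Arg1, among them. Endothelial-like cells hold 91.6% Hk1 in PBS and 92.5% in LPS, and fibroblast-like cells hold 87.7% and 91.5% Hk2.

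LPS was compared with PBS in the 10 classes that had at least 100 cells in both libraries. A gene counted as measured in a class when the higher library reached 20 CPM and 30 UMIs, and as called when the libraries differed at least 1.5-fold. Of 179 measured pairs of gene and class, 50 were higher in LPS and 12 lower. Over all genes in these classes 14.3% of pairs were higher and 13.3% lower. The count depends on how cells are named: with each cell named by its own marker score, in place of its cluster, 15 classes were compared and 146 of 307 pairs were higher, against 17.9% of all pairs. That naming also takes in the cells of unnamed clusters, among them a cluster high in Arg1 with 556 LPS cells and no PBS cell. Their part in the count was not tested. The genes called higher in the most classes were Hif1a, in 5 of 8, Slc2a1, in 4 of 7, and Pfkfb3, in 4 of 8 with 1 class lower. P4ha1, a subunit of the collagen prolyl hydroxylase, was higher in 4 of 9. Hk1, Hk2, Hk3, Pfkp, Pkm and Ndrg1 were higher in 3 classes each. Gapdh was higher in 1 of 10 classes and Ldha in 2 of 10, and the isomerase Gpi1 was called in none of 10.

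**Figure D2:**
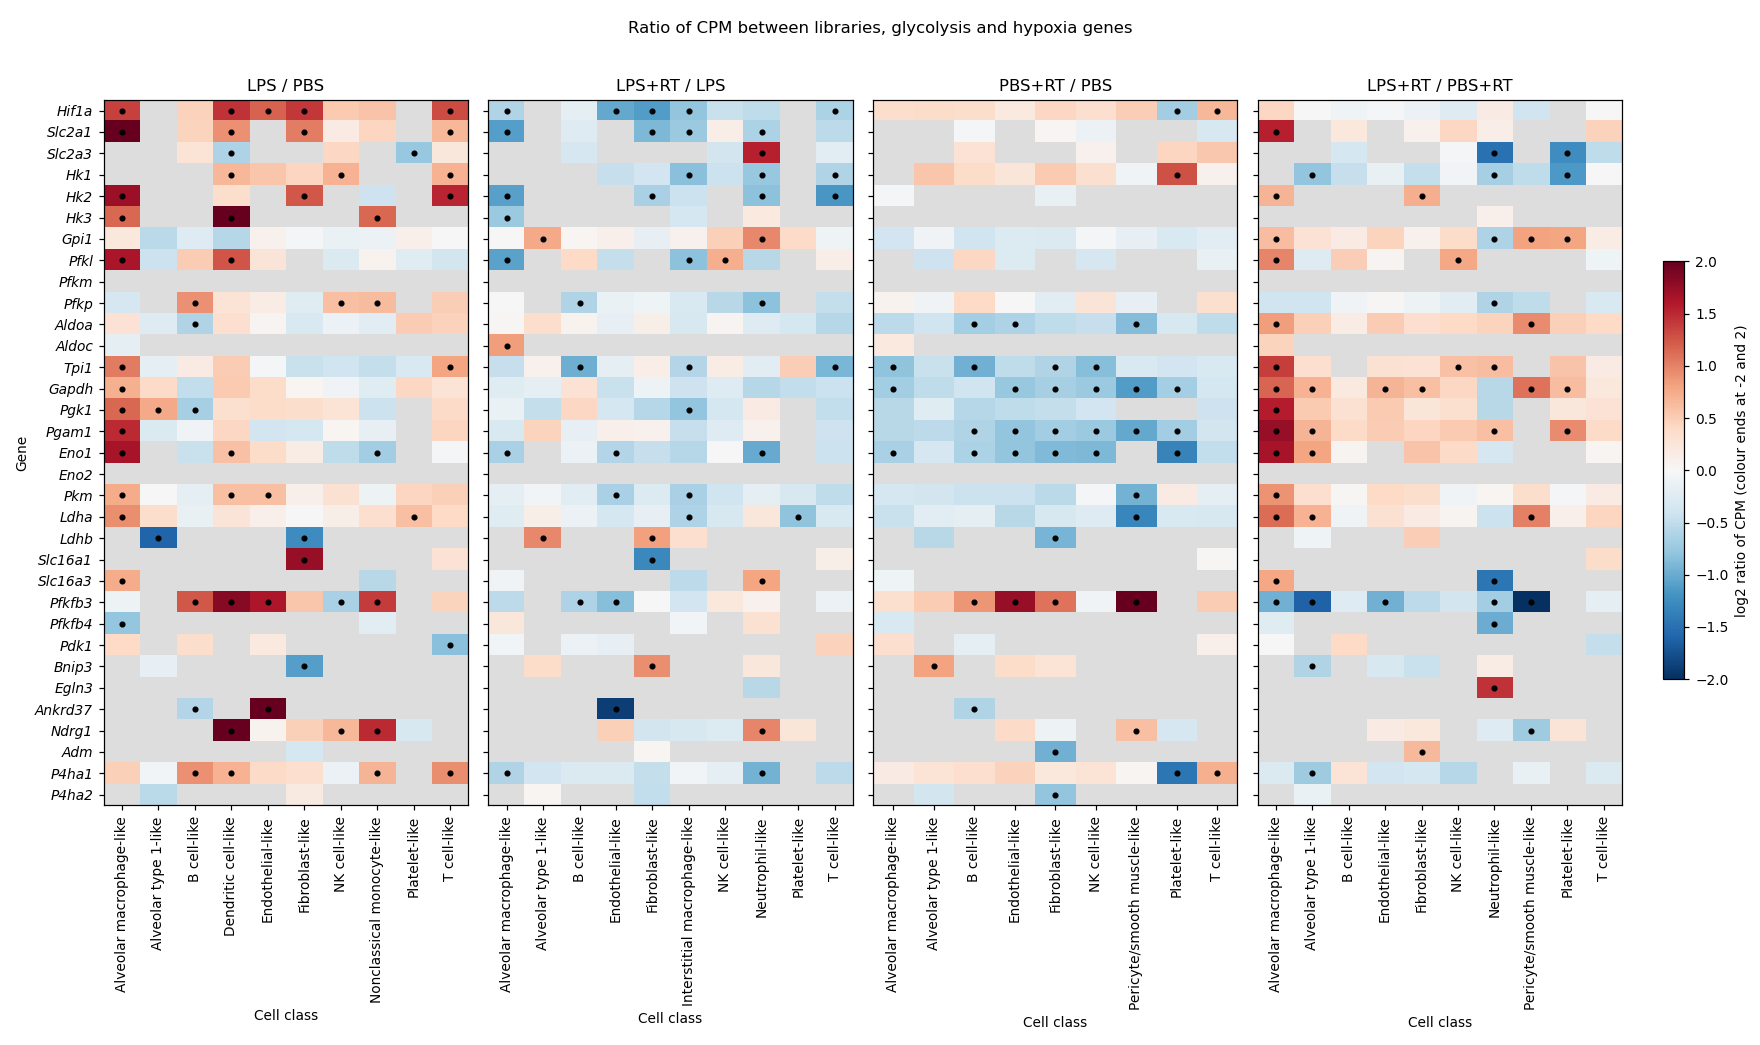
Ratios of CPM between libraries for each gene (y axis) and cell class (x axis), with 1 panel for each of the 4 comparisons. Colour gives the log2 ratio, red for higher in the first library, with the scale ending at -2 and 2; dots mark differences of at least 1.5-fold and grey marks genes under the minimum level. Alveolar macrophage-like cells carry the most dots in LPS against PBS, with 13 higher and 1 lower, and Hif1a has dots in 5 classes there.

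The most called genes between LPS and PBS were in alveolar macrophage-like cells, which clear particles from the airspace. Of 21 measured genes 13 were higher and 1 was lower, with a median log2 ratio of 0.75, while over all genes measured in these cells 15.1% were higher and 12.8% lower with a median of 0.03. Slc2a1 stood at 11.4 CPM in PBS and 9.12 in PBS+RT, and 57.1 in LPS and 26.7 in LPS+RT. LPS was thus the highest library and LPS+RT the next, and the difference between LPS and PBS was 5.01-fold (95% interval 4.19 to 6.01). Hk2 was at 44.4, 43.1, 145 and 68.7 CPM in the same order, which is 3.27-fold higher in LPS than in PBS (2.97 to 3.61). Eno1, the enolase, was at 50.8, 32.5, 159.9 and 102 CPM, 3.15-fold higher (2.87 to 3.45). Pfkl, which makes fructose 1,6-bisphosphate at the committed step, was at 18.2, 13.8, 56.8 and 27.1 CPM and was 3.11-fold higher. For each of these 4 genes the LPS library was the highest, LPS+RT the second and PBS+RT the lowest. Hif1a was at 98.7, 126, 255 and 168 CPM, 2.58-fold higher in LPS than in PBS (2.41 to 2.77), and here PBS was the lowest library. The phosphoglycerate mutase Pgam1 was 2.83-fold higher, Pgk1 and Hk3 2.22-fold, the triose phosphate isomerase Tpi1 2.06-fold and Ldha 1.90-fold. Pfkfb4 was the single gene called lower, at 88.7 CPM in PBS and 51.7 in LPS (1.72-fold, 1.53 to 1.93).

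The alveolar macrophage-like cells of the 4 libraries differed in other ways as well. They numbered 669 in PBS and 692 in PBS+RT, and 191 in LPS and 831 in LPS+RT. Cells with at least 3 UMIs of 6 cycling markers made up 9.87% of them in PBS and 2.89% in PBS+RT, and 67.5% in LPS and 29.1% in LPS+RT. This limit was not adjusted for depth. The cells had medians of 23023 UMIs in PBS and 23572 in PBS+RT, and 36974 in LPS and 25442 in LPS+RT. The part of depth in these shares was not tested. Among the cells below that limit, 62 in LPS and 603 in PBS, 11 of 20 measured genes were still higher in LPS, with a median log2 ratio of 0.77, where 11.2% of all genes were higher. The class was made of different clusters in each library. Cluster 5 held 85.7% of it in PBS and 97.0% in PBS+RT, and 6.28% in LPS and 29.6% in LPS+RT, and cluster 19 held 6.13%, 1.30%, 65.5% and 59.7%. No cluster of the class had 50 cells in both LPS and PBS, so a difference within a cluster and a change of clusters cannot be told apart for that pair of libraries. S100a8, an abundant neutrophil transcript, stood in these cells of the LPS library at 1.19% of its neutrophil-like level. After each cell was thinned to 2000 UMIs, which left out 2 to 16 cells of the class in a library, Hif1a was seen in 13.8% of these cells in PBS and 20.9% in PBS+RT, and 33.3% in LPS and 24.6% in LPS+RT, against 0.781% of red cell-like cells in PBS. Without thinning the values were 77.3%, 82.7%, 94.8% and 88.3%, and 1.44% of red cell-like cells. The median depth was 23023 UMIs in alveolar macrophage-like cells of PBS and 10111 in red cell-like cells.

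**Figure D3:**
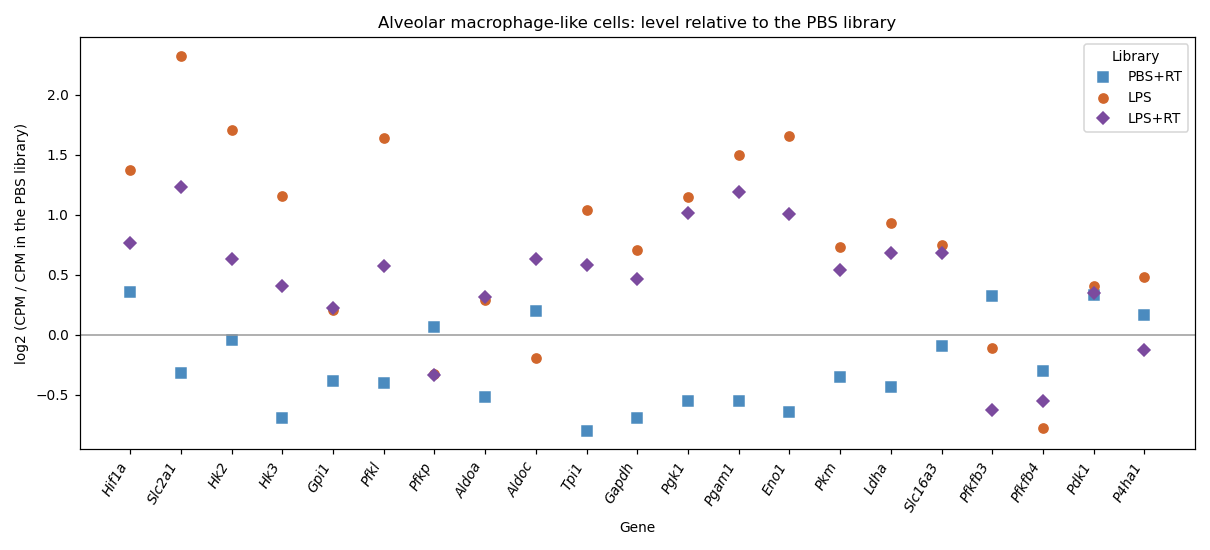
Level of 21 genes in alveolar macrophage-like cells as log2 of the CPM in a library over the CPM in the PBS library (y axis), with 1 point for each of the PBS+RT, LPS and LPS+RT libraries and the grey line at the PBS level. Slc2a1 has the highest LPS point (57.1 against 11.4 CPM), and Pfkfb4 lies under the PBS level in all 3 other libraries.

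Hif1a was called higher in LPS than in PBS in alveolar macrophage-like, dendritic cell-like, T cell-like, endothelial-like and fibroblast-like cells. In dendritic cell-like cells the compared libraries gave 75.8 CPM for PBS and 207 for LPS, a 2.73-fold difference. T cell-like cells differed 2.48-fold (2.19 to 2.80) between 124 and 306 CPM. In fibroblast-like cells Hif1a stood at 56.2, 75.0, 149.6 and 68.9 CPM in PBS, PBS+RT, LPS and LPS+RT, 2.66-fold higher in LPS than in PBS (2.33 to 3.04). Endothelial-like cells showed 58.9, 67.3, 133 and 65.3 CPM, 2.25-fold higher (2.03 to 2.50). In both of these classes the LPS library stood alone and the other 3 lay within a narrow range. NK cell-like cells, at 73.5 and 105 CPM, B cell-like cells, at 69.4 and 95.7 CPM, and nonclassical monocyte-like cells, at 86.3 and 128 CPM, stayed under the 1.5-fold limit. Classical monocyte-like cells had 100 cells in LPS only, at 245 CPM.

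**Figure D4:**
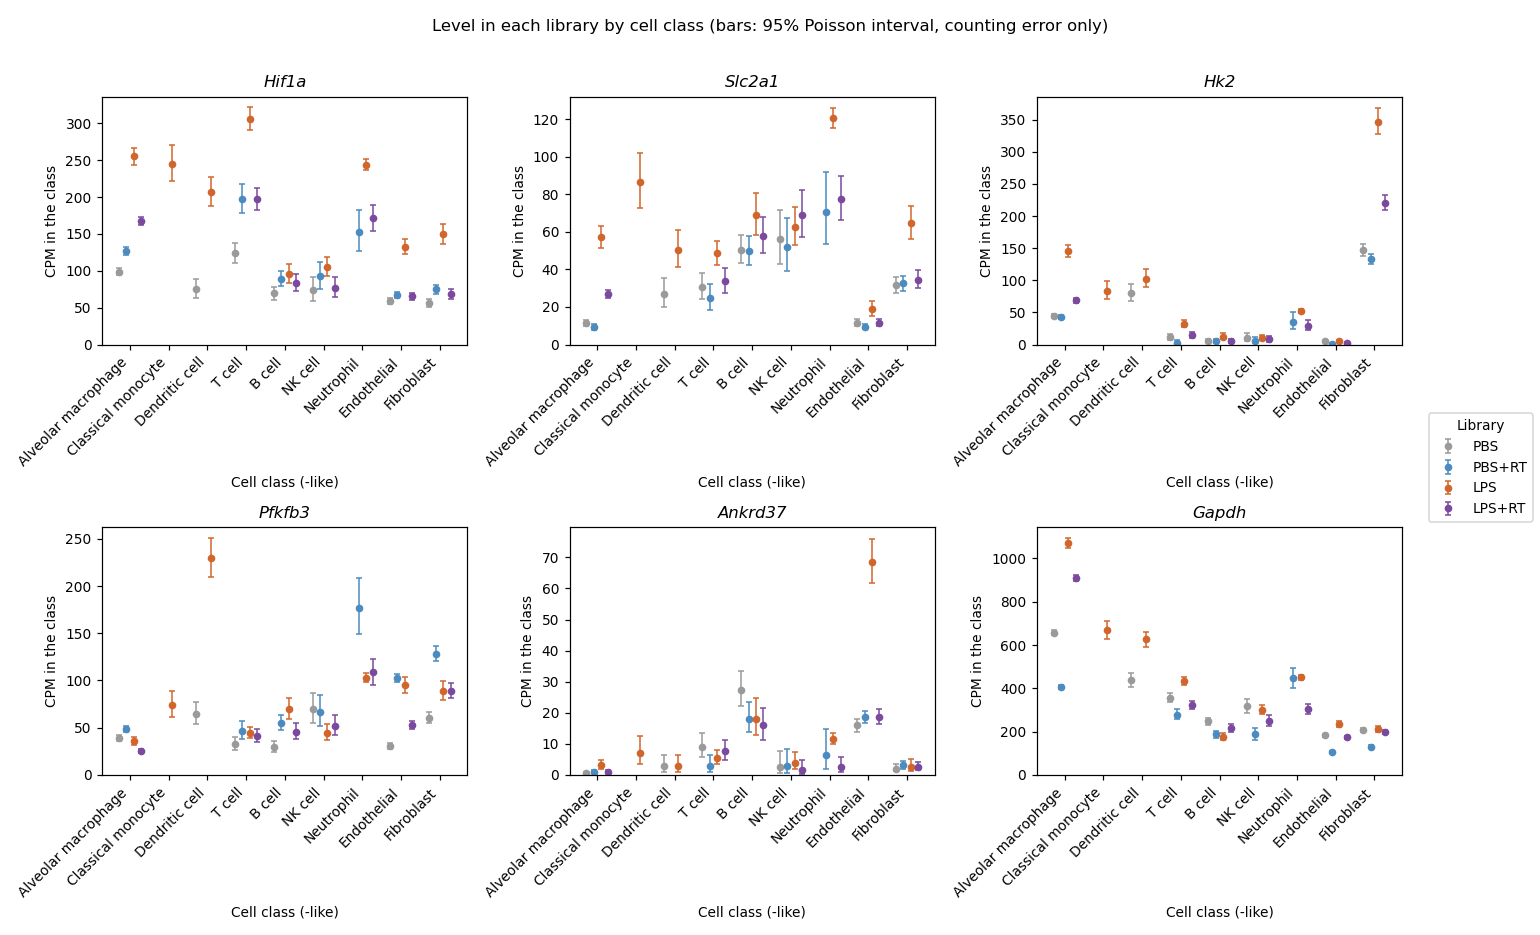
CPM (y axis) of 6 genes in 9 cell classes (x axis) in the 4 libraries; points are library values and bars their 95% Poisson intervals, which cover counting error only. Only values from at least 100 cells are drawn, so classical monocyte-like cells have an LPS point alone and dendritic cell-like cells have PBS and LPS points. The LPS point for Hif1a is the highest in every class with points of several libraries. Ankrd37 stands out in endothelial-like cells of LPS at 68.5 CPM, and Hk2 is highest in fibroblast-like cells.

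In endothelial-like cells 4 of 18 genes were higher in LPS, where 8.74% of all genes were higher. Ankrd37, a small ankyrin repeat protein induced by HIF-1, stood at 15.9 CPM in PBS and 18.6 in PBS+RT, and 68.5 in LPS and 18.7 in LPS+RT. The LPS library alone was high, 4.31-fold over PBS (3.63 to 5.12). Pfkfb3, the isoform that drives glycolysis in sprouting endothelium, was at 30.8, 103, 94.9 and 52.7 CPM, 3.08-fold higher in LPS than in PBS (2.70 to 3.52). Here PBS+RT was as high as LPS. The pyruvate kinase gene Pkm was 1.52-fold higher. Endothelial-like cells came from clusters in unequal parts: cluster 1 gave 41.4% of the PBS cells and 17.5% of the LPS cells. More genes were called inside the clusters than in the pooled class, 8 of 18 in cluster 1 (10.6% of all genes higher), 7 of 20 in cluster 4 (9.32%), 6 of 19 in cluster 6 (7.09%) and 5 of 17 in cluster 10 (14.4%). Ankrd37 was higher in LPS within each of these 4 clusters, which were the ones that reached 50 cells in PBS and in LPS, at 15.9 and 74.8 CPM in cluster 1, 8.87 and 60.1 in cluster 4, 9.79 and 48.8 in cluster 6, and 21.8 and 101 in cluster 10. Hif1a differed by 1.92-fold to 2.56-fold within them, and Pfkfb3 differed by 1.37-fold in cluster 6 and by 3.27-fold to 4.39-fold in the others. Cluster 0, a shallow and unnamed cluster with endothelial markers, gave Ankrd37 at 11.5, 7.24, 72.7 and 15.4 CPM in PBS, PBS+RT, LPS and LPS+RT and Hif1a at 63.7, 53.6, 123 and 45.1 CPM.

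In fibroblast-like cells 4 of 22 genes were higher in LPS and 2 lower, where 12.8% and 11.8% of all genes were. Hk2 was 2.36-fold higher in LPS than in PBS (2.17 to 2.56). Slc2a1 stood at 31.6, 32.5, 64.5 and 34.6 CPM in PBS, PBS+RT, LPS and LPS+RT, and Slc16a1 at 9.27, 13.2, 31.1 and 12.7 CPM (3.35-fold, 2.44 to 4.62). For both transporters, of glucose and of lactate, the LPS library was high and the other 3 lay close together. Ldhb was lower in LPS, at 40.6, 21.3, 17.0 and 30.0 CPM, and so was Bnip3, a mitophagy receptor, at 30.3 CPM in PBS and 2.16-fold below that in LPS (1.57 to 3.02). Cluster 14 was the one fibroblast cluster that reached 50 cells in PBS and in LPS. Within it Hk2 was at 170.5 CPM in PBS and 427 in LPS, Hif1a at 59.5 and 153 CPM, and Ldhb at 36.0 and 17.4 CPM.

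Among the other leukocytes, dendritic cell-like cells had 10 of 20 genes higher in LPS and 1 lower, with 28.4% of all genes higher there and 11.1% lower. Ndrg1, a stress gene of the hypoxia response, was at 20.7 CPM in PBS and 116 in LPS (5.57-fold, 3.95 to 8.07). Pfkfb3 was at 64.9 and 229.6 CPM (3.54-fold, 2.89 to 4.36). Hk3 was at 0.545 CPM in PBS, from a single UMI, and at 25.9 in LPS, so its ratio of 47.5 has an interval of 8.16 to 1909. This class joins conventional, migratory and plasmacytoid cells, and the part of their mix in these differences was not tested. Nonclassical monocyte-like cells had 5 of 20 higher, led by Ndrg1 (17.3 and 48.5 CPM), Pfkfb3 (29.0 and 76.4 CPM) and Hk3 (13.3 and 29.6 CPM), and 1 lower, Eno1 (132 and 81.8 CPM), against 13.5% and 15.9% of all genes. Pfkfb3 thus differed in both of these myeloid classes, while in alveolar macrophage-like cells it stood at 38.6, 48.4, 35.9 and 25.0 CPM and was not called.

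Of the lymphocytes, T cell-like cells had 6 of 20 genes higher in LPS and 1 lower, where 18.7% and 6.93% of all genes were. P4ha1 was at 58.9, 96.1, 112 and 78.5 CPM in PBS, PBS+RT, LPS and LPS+RT, 1.91-fold higher in LPS than in PBS. Hk2 was at 11.3, 2.94, 32.5 and 14.6 CPM, 2.87-fold higher (1.93 to 4.41). The makeup of the class differed between these libraries. Cluster 21 held 23.5% of it in PBS and 48.2% in LPS, with Hk2 at 22.2 and 39.6 CPM. In cluster 13 Hk2 was at 8.07 and 3.34 CPM, under the minimum of 20 CPM. The unweighted mean over these clusters gave a log2 ratio of -0.22 for Hk2 and rests in part on those low values. The part of the makeup in the Hk2 difference was not tested. Hif1a was higher within both clusters, by 2.58-fold and 2.77-fold. Pdk1 was 1.78-fold lower (1.46 to 2.18) in the whole class. B cell-like cells had 3 of 18 higher, namely Pfkfb3 (29.7 and 69.9 CPM), Pfkp (31.4 and 59.4 CPM) and P4ha1 (25.6 and 48.1 CPM), and 3 lower, namely Aldoa, Pgk1 and Ankrd37, against 17.5% and 8.77% of all genes. NK cell-like cells had 3 of 18 higher (Hk1, Pfkp and Ndrg1, 1.51-fold to 1.63-fold) and 1 lower, Pfkfb3 (70.0 and 44.9 CPM), against 13.2% and 11.4%. Alveolar type 1-like cells, the flat epithelium of gas exchange, had 1 of 13 higher, Pgk1 (67.9 and 114 CPM), and 1 lower, Ldhb (53.5 and 17.6 CPM), against 6.19% and 25.8%. In platelet-like cells 1 of 9 was higher, Ldha (109.6 and 166 CPM), and 1 lower, Slc2a3 (93.9 and 55.3 CPM), with 4.62% and 29.8% of all genes called.

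High levels of much of the pathway in LPS were found in a cluster that the marker rule left unnamed. It was chosen for its Arg1 level and held 556 LPS cells, 122 LPS+RT cells, 3 PBS+RT cells and no PBS cell. It carried markers of 2 classes, classical monocytes and interstitial macrophages, and its leading genes included Saa3, Arg1 and Nos2, which encode an acute phase protein, arginase and inducible nitric oxide synthase. In the LPS library 16 of its 23 measured genes stood above all 13 named classes, 14 of them with intervals apart, while 4.66% of all 5770 genes measured in the cluster stood above all of them. Beside the other 5 unnamed clusters of at least 100 LPS cells as well, 14 of 23 stood above all, against 3.33% of all genes. Hif1a was at 485 CPM, against 306 in T cell-like cells, the highest named class. Slc2a1 reached 187 CPM, where neutrophil-like cells had 121, and Pfkl at 144 against 56.8 in alveolar macrophage-like cells. The enzymes after the aldolase step followed, with Tpi1 at 454 CPM, Pgk1 at 401, Eno1 at 344, Ldha at 715 and Gapdh at 1624, where alveolar macrophage-like cells had 169.8, 162, 159.9, 511 and 1071 CPM. Bnip3 was at 70.6 CPM, where the highest named class had 23.5 and the unnamed cluster 15 had 81.3. Hk3 was at 96.4 CPM, where the unnamed cluster 16 had 258. Hk1, Hk2, Pfkp, Pfkfb3, Pdk1, Egln3 and Ndrg1 were higher in a named class. Hk2, at 254 CPM, stayed below the 347 CPM of fibroblast-like cells, and Pfkfb3, at 79.0 CPM, below the 229.6 CPM of dendritic cell-like cells. The cells were deep, with a median of 24480 UMIs in LPS, and 46.6% of them had at least 3 cycling UMIs.

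**Figure D5:**
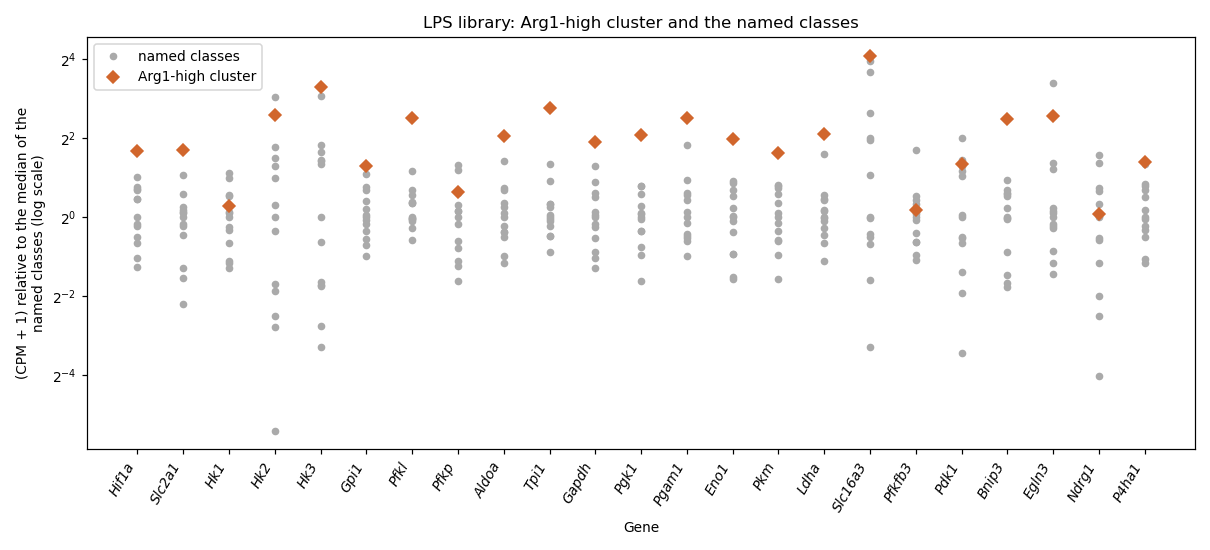
Level of the 23 genes measured in the unnamed Arg1-high cluster of the LPS library (diamonds) and in the 13 named classes of that library (grey points), as (CPM + 1) relative to the median of the named classes on a log scale. The diamond is the topmost point for 16 of the 23 genes, among them Pfkl, Tpi1 and Bnip3, while Hk2 and Egln3 are exceeded by a named class. Genes of the list under the minimum level in the cluster are not drawn, and all of them were higher in a named class.

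In LPS+RT the same cluster was lower in part of the genes. Of 23 measured genes 8 were lower than in LPS, with a median log2 ratio of -0.51, where 10.3% of all genes were lower and the median was -0.02. Pfkfb3 was at 79.0 CPM in LPS and 29.5 in LPS+RT (2.68-fold, 2.15 to 3.38), Egln3 at 22.2 and 9.71 CPM (2.29-fold), Hk3 at 96.4 and 45.1 CPM (2.14-fold) and Bnip3 at 70.6 and 33.3 CPM (2.12-fold). Slc2a1 was at 187 and 115 CPM. Hif1a, at 485 and 336 CPM, differed 1.44-fold and was not called. Beside this, Nos2 stood at 563 CPM in LPS and 62.1 in LPS+RT, Saa3 at 8881 and 2599 CPM, and cells with cycling markers made up 46.6% and 21.3%. In LPS+RT 14 of 21 measured genes still stood above all 11 named classes, where 9.25% of all genes stood above them. Every gene of the list under the minimum in the cluster was again higher in a named class. Beside the other 6 unnamed clusters of at least 100 LPS+RT cells as well, 14 of 21 stood above all, against 5.98%.

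LPS+RT was compared with LPS in 10 classes to ask what the irradiation changed in inflamed lungs. Since this comparison and the one of LPS with PBS share the LPS library, a high or low value in that one library enters both with opposite signs, and neither supports the other. Of 181 measured pairs 10 were higher in LPS+RT and 38 lower, where over all genes 6.95% of pairs were higher and 8.81% lower. Hif1a was lower in 5 of 8 classes, Slc2a1 in 4 of 7, Hk2 in 4 of 5, Hk1 in 3 of 6, Eno1 in 3 of 8 and Pfkfb3 in 2 of 8. Gapdh, Aldoa and Pgam1 were called in none. With ratios centred on the median of all genes of a class, 28 of the 181 pairs were lower and 9 higher, against 7.49% and 7.22% of all pairs. With cells named by their own marker score, which takes in the cells of unnamed clusters, 130 of 304 pairs were lower, against 12.4% of all pairs.

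In alveolar macrophage-like cells 7 of 21 genes were lower and 1 higher, where 9.23% and 4.99% of all genes were. Slc2a1 was 2.14-fold lower (1.88 to 2.43), Hk2 2.12-fold (1.95 to 2.29), Pfkl 2.10-fold (1.84 to 2.38), Eno1 1.57-fold and Hif1a 1.52-fold. Aldoc was higher, at 26.3 CPM in LPS and 46.9 in LPS+RT (1.78-fold, 1.52 to 2.09). Among cells under 3 cycling UMIs, 62 in LPS and 589 in LPS+RT, 5 of 20 genes were lower and 1 higher, where 9.19% and 6.33% of all genes were. Within cluster 19, with 125 cells in LPS and 496 in LPS+RT, Slc2a1 was at 66.1 and 28.2 CPM, Hk2 at 145 and 74.5 CPM, and Pfkl at 61.3 and 29.2 CPM. These 3 genes were thus about as much lower inside the cluster as in the class.

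Endothelial-like cells had 5 of 18 genes lower, where 5.64% of all genes were. The genes were Ankrd37 (3.67-fold, 3.11 to 4.35), Hif1a (2.04-fold, 1.84 to 2.25), Pfkfb3 (1.80-fold), Pkm (1.56-fold) and Eno1 (1.51-fold). Ankrd37 in LPS+RT, at 18.7 CPM, was close to its 15.9 CPM in PBS, and within the 4 clusters named above it was 3.78-fold to 6.71-fold lower in LPS+RT than in LPS. In fibroblast-like cells Slc16a1 was 2.44-fold lower, Hif1a 2.17-fold (1.90 to 2.48), Slc2a1 1.86-fold and Hk2 1.57-fold, while Bnip3 was 1.90-fold and Ldhb 1.76-fold higher. The class thus had 4 of 22 genes lower and 2 higher, against 9.83% and 4.78% of all genes.

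Interstitial macrophage-like cells, which passed 100 cells in LPS and LPS+RT and in neither other library, had 8 of 22 genes lower, against 9.06% of all genes. Pgk1, the phosphoglycerate kinase, was at 141 CPM in LPS and 82.0 in LPS+RT (1.72-fold), Hif1a at 206 and 119 CPM (1.74-fold) and Slc2a1 at 61.6 and 36.7 CPM (1.68-fold). Cells with at least 3 cycling UMIs made up 22.7% of the class in LPS and 5.42% in LPS+RT, and their part in these values was not tested. In T cell-like cells Hk2 (2.24-fold, 1.61 to 3.16), Tpi1 (1.89-fold), Hif1a (1.56-fold) and Hk1 (1.52-fold) were lower, 4 of 20, against 10.7% of all genes. The makeup of the class differed here too, with cluster 21 at 48.2% of it in LPS and 33.1% in LPS+RT. Within cluster 21 Hk2 was at 39.6 and 26.8 CPM (1.48-fold) and within cluster 13 at 3.34 and 4.92 CPM, so it was called in neither, while Hif1a was 1.92-fold lower in cluster 21 and 1.48-fold lower in cluster 13. B cell-like cells had 3 of 17 lower, led by Tpi1 (35.4 and 17.9 CPM), where 9.15% of all genes were. In NK cell-like cells 1 of 18 was higher, Pfkl, at 24.4 CPM in LPS and 40.3 in LPS+RT, against 6.12%. Alveolar type 1-like cells had 2 of 12 higher, Gpi1 (61.6 and 104 CPM) and Ldhb (17.6 and 34.1 CPM), against 21.9%, and both turned under another setting (log2 ratio of -0.52 for Gpi1 with cells named by their own score, and -0.22 for Ldhb with cells weighted equally). In platelet-like cells 1 of 7 was lower, Ldha, 1.75-fold under its 166 CPM in LPS, against 8.82%.

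Neutrophil-like cells numbered 75 in PBS and 111 in PBS+RT, and 3077 in LPS and 614 in LPS+RT. They differed between LPS+RT and LPS in both directions, with 4 of 24 genes higher and 6 lower, where 11.7% and 11.2% of all genes were. The high-affinity glucose transporter Slc2a3 stood at 417 CPM in PBS+RT, against 50.4 in LPS and 149 in LPS+RT, 2.95-fold higher in LPS+RT than in LPS (2.59 to 3.36). The exporter Slc16a3 was at 589.8, 125 and 216 CPM, Gpi1 at 361, 122 and 236 CPM, and Ndrg1 at 59.4, 25.3 and 49.9 CPM. For these 4 genes PBS+RT was highest and LPS lowest. Slc2a1 had LPS as its highest library, at 70.7, 121 and 77.5 CPM, so that its share of the UMIs of the 2 glucose transporters was 14.5% in PBS+RT, against 70.5% in LPS and 34.2% in LPS+RT. Eno1 was at 79.6, 127 and 63.2 CPM, 2.01-fold lower in LPS+RT than in LPS (1.69 to 2.40), and Pfkp and P4ha1 were 1.77-fold and 1.93-fold lower.

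The neutrophil-like class changed its composition along with these levels. Cluster 28 made up 67.6% of it in PBS+RT, against 5.92% in LPS and 12.5% in LPS+RT, and cluster 2 made up 0.901%, 50.3% and 34.0%. Within cluster 28 Slc2a3 was at 469 CPM in PBS+RT, against 263 in LPS and 490.3 in LPS+RT, and Slc16a3 at 772, 549 and 717 CPM. Within cluster 2 Slc2a3 was at 32.2 CPM in LPS and 40.2 in LPS+RT and Slc16a3 at 87.2 and 83.6 CPM. Within cluster 24 Slc2a3 was at 47.4 and 91.5 CPM and Slc16a3 at 171.5 and 132.8 CPM, and within cluster 17 Slc2a3 was at 8.57 and 16.8 CPM and Slc16a3 at 28.6 and 27.9 CPM. The ratios of both transporters inside each of these 4 clusters were thus closer to 1 than in the class as a whole. Gpi1 was 1.54-fold higher within cluster 28 (216 and 333 CPM), and in cluster 2 it was at 108 and 104 CPM. Eno1 was lower in LPS+RT in all 4 clusters with enough cells, by 2.00-fold to 2.81-fold, which is as much as in the class. Inside each of these clusters more genes were lower than higher in LPS+RT. In cluster 2, 6 of 21 were lower and 1 higher, where 10.4% and 9.1% of all genes were. Cluster 17 had 9 of 11 lower and none higher (32.7% and 5.34% of all genes). Cluster 24 had 9 of 22 lower and 1 higher (20.6% and 7.85%), and cluster 28 had 8 of 21 and 2 (20.5% and 6.63%).

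PBS+RT was compared with PBS in 9 classes to see the irradiation in lungs without LPS. Of 155 measured pairs 9 were higher and 33 lower, where 16.6% of all pairs were higher and 13.4% lower. The enzymes after the aldolase step made up most of the lower calls. Gapdh, Pgam1 and Eno1 were lower in 6 classes each (of 9, 9 and 8), Tpi1 in 4 of 9 and Aldoa in 3 of 9. In alveolar macrophage-like cells 3 of 18 genes were lower, against 10.7% of all genes: Tpi1, Eno1 and Gapdh, the last at 657 CPM in PBS and 406 in PBS+RT (1.62-fold, 1.57 to 1.67). In endothelial-like cells 4 of 17 were lower and 1 higher, against 15.6% and 11.5%, with Gapdh at 183 and 108 CPM (1.69-fold). This class also sat in different clusters, since cluster 1 held 41.4% of it in PBS and 13.1% in PBS+RT, and cluster 4 held 7.30% and 43.2%. Gapdh was 1.76-fold lower within cluster 1, 1.55-fold within cluster 10 and 1.53-fold within cluster 31, and differed 1.12-fold within cluster 4 and 1.27-fold within cluster 6, where it was not called. In fibroblast-like cells 7 of 21 were lower and 1 higher, against 14.8% and 17.3%. Among them were Adm, at 129 and 66.0 CPM (1.95-fold, 1.75 to 2.17), and Ldhb, at 40.6 and 21.3 CPM. Pericyte and smooth muscle-like cells had 5 of 13 lower and 2 higher, against 17.2% and 22.2%. Ldha was lower there, at 109.9 and 44.3 CPM (2.48-fold, 1.70 to 3.66), and so were Gapdh (2.17-fold) and Pkm, at 149 and 77.3 CPM. B cell-like cells had 5 of 19 lower, led by Tpi1 (1.95-fold), and 1 higher, against 7.56% and 18.2%. NK cell-like cells had 4 of 17 lower, led by Eno1 (146 and 78.2 CPM), against 12.2%. Platelet-like cells had 5 of 13 lower and 1 higher, the latter Hk1 at 47.9 and 115 CPM, against 32.5% and 4.18%.

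Against this direction, Pfkfb3 was higher in 4 of 8 classes. In pericyte and smooth muscle-like cells it stood at 16.6 CPM in PBS, 95.9 in PBS+RT and 23.1 in LPS+RT, 5.77-fold higher in PBS+RT than in PBS (3.22 to 11.3). Cluster 36 held 25.0% of this class in PBS, 42.0% in PBS+RT and 23 of 121 cells in LPS+RT, and within it Pfkfb3 was at 19.6 CPM in PBS and 108 in PBS+RT, while within cluster 26 it was at 12.4 and 46.1 CPM. Endothelial RNA was present in the class as well, with Cldn5 at 19.3%, 20.8% and 18.4% of its endothelial-like level in PBS, PBS+RT and LPS+RT, and its part in these values was not tested. In endothelial-like cells it was 3.33-fold higher (3.00 to 3.71), and in each of the 4 larger clusters of that class it was 2.11-fold to 4.15-fold higher. The fibroblast-like cells had 60.3, 128, 88.7 and 89.0 CPM in PBS, PBS+RT, LPS and LPS+RT, a 2.13-fold difference (1.90 to 2.39), and the B cell-like cells had 29.7, 54.8, 69.9 and 45.7 CPM (1.85-fold). Of the libraries with at least 100 cells PBS was the lowest in each of these 4 classes, which for pericyte and smooth muscle-like cells leaves out LPS. T cell-like cells had 2 of 19 genes higher, Hif1a (124 and 197 CPM, 1.59-fold, 1.37 to 1.85) and P4ha1 (1.63-fold), against 26.8% of all genes. In alveolar type 1-like cells 1 of 18 was higher, Bnip3, at 26.3 and 45.9 CPM, against 16.7%.

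Other transcripts differed between the same libraries in ways that touch these lower calls. Malat1, a nuclear RNA, stood at 6046 CPM in PBS and 11293 in PBS+RT in alveolar macrophage-like cells, at 21662 and 26957 in endothelial-like cells and at 21445 and 30886 in fibroblast-like cells. Malat1 stood at 15171 and 17191 CPM in B cell-like cells, 16272 and 17335 in NK cell-like cells and 24860 and 29112 in pericyte and smooth muscle-like cells. In platelet-like cells it was lower in PBS+RT (1699 and 1006). There 5 of 13 genes were called lower, against 32.5% of all genes. Mitochondrial UMIs made up 2.66% and 1.79% in endothelial-like cells. From a list of 13 respiratory chain genes, 9 were lower in PBS+RT in alveolar macrophage-like cells (median log2 ratio -0.65, against 10.7% of all genes lower). In endothelial-like cells 8 were lower (-0.71, against 15.6%) and in fibroblast-like cells 8 (-0.68, against 14.8%). Genes of both pathways were thus lower in PBS+RT in these 3 classes beside a higher nuclear RNA, and its part in the result was not tested. Ratios centred on the median of all genes of a class gave 45 of 155 pairs lower and 7 higher in place of 33 and 9. Over all genes 16.7% and 11.3% of pairs were called with this centring.

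LPS+RT against PBS+RT compares lungs with and without LPS when both were irradiated, in libraries that enter neither side of the LPS to PBS comparison. It shares the PBS+RT library with the comparison of PBS+RT and PBS and the LPS+RT library with that of LPS+RT and LPS, so a value of one library enters both and neither comparison supports the other. Of 170 measured pairs in 10 classes 33 were higher and 17 lower, where 11.1% and 15.9% of all pairs were. Alveolar macrophage-like cells had 13 of 20 genes higher and 1 lower, with a median log2 ratio of 0.80, where 16.7% and 20.2% of all genes were called and the median was -0.11. Pgam1 was at 79.4 CPM in PBS+RT and 267 in LPS+RT (3.36-fold, 3.17 to 3.57), Eno1 at 32.5 and 102 CPM (3.14-fold), Pgk1 at 49.8 and 147 CPM (2.96-fold) and Slc2a1 at 9.12 and 26.7 CPM (2.93-fold). Pfkfb3 was lower, at 48.4 and 25.0 CPM (1.94-fold, 1.74 to 2.16). Within cluster 5, with 671 cells in PBS+RT and 246 in LPS+RT, the differences were smaller. Of 18 measured genes 3 were higher there and none lower, where 4.43% and 6.55% of all genes were. The median log2 ratio was 0.37, against -0.11 over all genes. Pgam1 was there at 78.6 and 118 CPM, Eno1 at 32.5 and 59.2 CPM, and Gapdh at 404 and 656 CPM. Most of the class in LPS+RT belonged to cluster 19, which held 9 cells of PBS+RT.

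Hif1a was called in none of the 9 classes in which it was measured in this comparison, at 67.3 and 65.3 CPM in endothelial-like cells, 75.0 and 68.9 in fibroblast-like cells and 126 and 168 in alveolar macrophage-like cells. Gapdh was higher in 6 of 10 classes, Pgam1 in 4 of 9, and Ldha and Tpi1 in 3 each. Pfkfb3 was lower in 5 of 9. Alveolar type 1-like cells had 4 of 18 genes higher and 4 lower, against 11.2% and 19.3% of all genes, with Pfkfb3 at 68.9 and 22.4 CPM (3.07-fold, 1.96 to 5.01). Endothelial-like cells had 1 of 16 higher, Gapdh, and 1 lower, Pfkfb3 (1.95-fold, 1.78 to 2.13), against 6.69% and 5.28%. Pericyte and smooth muscle-like cells had 4 of 11 higher, led by Gapdh (2.13-fold), and 2 lower, led by Pfkfb3 (4.15-fold, 2.02 to 9.90), against 9.87% and 35.0%. In neutrophil-like cells 3 of 21 were higher and 7 lower, against 35.0% and 17.0%. Slc2a3 (2.80-fold) and Slc16a3 (2.74-fold) were lower in LPS+RT, and Egln3 was higher, at 10.1 and 27.6 CPM (2.73-fold, 1.30 to 6.61). The change of clusters went with these values. Cluster 28 was the only cluster of the class with enough cells in both libraries, 75 in PBS+RT and 77 in LPS+RT. It held 67.6% of the class in PBS+RT and 12.5% in LPS+RT. Within cluster 28 Slc2a3 had a log2 ratio of 0.064, and Egln3 was at 15.4 and 17.2 CPM. The mean over clusters rested on cluster 28 alone, so it does not describe the whole class. Fibroblast-like cells had 3 of 20 higher, Hk2 (1.66-fold), Adm (1.57-fold) and Gapdh (1.52-fold), against 8.88%. NK cell-like cells had 2 of 17 higher, Pfkl and Tpi1, against 6.37%. Platelet-like cells had 3 of 11 higher and 2 lower, the latter Slc2a3 and Hk1, against 20.7% and 9.28%.

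Genes around the pathway were read from fixed lists. Of the 9 oxygen sensing genes other than Hif1a and Egln3, Epas1, which encodes HIF-2α, was lower in LPS than in PBS, at 83.6 and 32.9 CPM in alveolar macrophage-like cells, 289 and 136 in fibroblast-like cells and 108 and 39.6 in T cell-like cells. Epas1 stood at 2250 CPM in endothelial-like cells of PBS and 1764 in LPS. It was also high in PBS in platelet-like cells (2997 CPM), pericyte and smooth muscle-like cells (2125 CPM) and alveolar type 1-like cells (1067 CPM). Cldn5, an endothelial marker, was lower along with Epas1 in T cell-like cells, at 37.0 CPM in PBS and 4.92 in LPS. The part of endothelial RNA in the Epas1 values was not tested. Of the other HIF targets, 18 to 20 were measured in the following classes. In fibroblast-like cells 7 were higher and 3 lower in LPS, against 12.8% and 11.8% of all genes, with Vegfa, a growth factor for blood vessels, lower at 131 CPM in PBS and 78.2 in LPS. T cell-like cells had 5 higher, against 18.7%, led by the repressor Bhlhe40 at 32.8 and 169 CPM. Alveolar macrophage-like cells had 5 higher and 4 lower, against 15.1% and 12.8%. The 13 respiratory chain genes had none called in alveolar macrophage-like cells between LPS and PBS, with a median log2 ratio of 0.17, and of 16 citric acid cycle genes 3 were higher, led by Idh3a at 23.2 and 42.0 CPM.

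Several genes need care in reading. Aldoa is listed under 2 gene identifiers, of which the one used held 91937 UMIs and the other 6. Eno1b, a near copy of Eno1, held 382 UMIs and Aldoart1, a copy of Aldoa, 27, so few reads went to them, and how the counting treated reads shared with copies is not given in the sources used here. Neutrophil RNA was measurable in other classes of the LPS library. S100a8 stood at 5.23% of its neutrophil-like level in platelet-like cells, 3.01% in fibroblast-like cells, 1.52% in endothelial-like cells and 0.427% in T cell-like cells, and in LPS+RT at 0.0804% to 0.36% over the classes with at least 100 cells. Its part in the differences between these libraries was not tested.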

How the data were processed

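UMI counts per gene and cell were deposited by the authors as filtered matrices of Cell Ranger 7.0.1, per the file headers. The submitters' processing notes list Seurat 4.3.0, R 4.2.2, Cell Ranger 7 and the mm10 build. Whether introns were counted is not given in the sources used here, and barcode sharing between libraries was not analysed here. Total counts were 65995600 UMIs in 10083 barcodes of PBS, 69119644 in 6708 of PBS+RT, 80013887 in 9572 of LPS and 78669568 in 10996 of LPS+RT. A cell was retained with 500 or more UMIs, 200 or more genes and no more than 10% of UMIs from mitochondrial genes. Simulated doublets with an assumed rate of 8% were used to remove 107 to 196 cells a library (1.27% to 1.98%). Cells of all libraries were clustered together (2000 variable genes without the 33 genes and the 8 related lists, 30 components, 15 neighbours, Leiden resolution 1.5) with python-igraph 0.11.9 and leidenalg 0.10.2 under Python 3.11.15, numpy 2.4.6, scipy 1.17.1 and pandas 2.3.3. A cluster was named when at least 3 markers of a class were seen in 10% of its cells and were 2-fold above the rest, with a score 1.5 above the next class; these settings were chosen after the clusters were inspected.

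Counts were summed per class and library and divided by the class total (CPM). Ratios have exact conditional binomial 95% intervals, levels exact Poisson intervals and shares exact Clopper-Pearson intervals, and a count of 0 was set to 3 counts in a ratio. A call needs a 1.5-fold difference with 20 CPM and 30 UMIs in the higher library and 100 cells in both. Genes named are, for each comparison and class, up to 3 called higher and up to 3 lower with the largest log2 ratio after adding 10 CPM, and each gene at its highest and lowest class; others were named after their values were seen. The genes, lists and rules were chosen with earlier results of these data known. Interval coverage and calls were tested on simulated counts. The alternatives tried are other minimums and folds, centring, equal weight of cells, other class naming and clustering, a 5% mitochondrial limit, no doublet removal and no cycling cells.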

Additional observations from a re-analysis of the deposited data

Results flagged for a closer look

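The ratio of the irradiated to the unirradiated library went opposite ways in LPS and PBS lungs for 4 pairs of gene and class. Pfkfb3 in endothelial-like cells had a log2 ratio of -0.85 for LPS+RT over LPS and of 1.74 for PBS+RT over PBS. In B cell-like cells Pfkfb3 had -0.61 and 0.89. Hif1a in T cell-like cells had -0.64 and 0.67. Ldhb in fibroblast-like cells had 0.82 and -0.93. The same 4 values of Pfkfb3 in endothelial-like cells, read the other way, gave a log2 ratio of 1.62 for LPS over PBS and -0.96 for LPS+RT over PBS+RT. With 1 library in each group these differences were not tested.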

How the results depend on the processing

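No paired analysis was possible because each group holds 1 library and no test was made. Of 1126 recomputed ratios of single genes (132 results), 1117 kept their direction and 991 stayed past the fold limit. Of 449 medians (39 results) 425 kept their sign. These include 39 medians under the fold of 2, which changes only the calls, so their sign could not change. With a fold of 2 the pairs were 27 higher and 3 lower of 179 for LPS against PBS (4.94% and 4.7% of all pairs), 1 and 9 of 181 for LPS+RT against LPS (2.01% and 2.55%), 4 and 5 of 155 for PBS+RT against PBS (3.46% and 2.98%), and 10 and 6 of 170 for LPS+RT against PBS+RT (3.79% and 4.16%). With each cell named by its own marker score 146 of 307 pairs were higher for LPS against PBS over 15 classes (17.9% of all pairs), 130 of 304 lower for LPS+RT against LPS (12.4%), 18 higher and 54 lower of 226 for PBS+RT against PBS (18.6% and 14.3%), and 67 and 26 of 226 for LPS+RT against PBS+RT (13.3% and 18.5%). Under that naming log2 ratios changed sign for Eno1 in nonclassical monocyte-like cells (0.14) and Ldha in platelet-like cells (-0.0316) in LPS against PBS, for Gpi1 in alveolar type 1-like cells in LPS+RT against LPS (-0.52), for P4ha1 in platelet-like cells in PBS+RT against PBS (0.67), and for Ndrg1 in pericyte and smooth muscle-like cells in LPS+RT against PBS+RT (0.21, and 0.40 at resolution 3). With cells weighted equally Ldhb changed sign in alveolar type 1-like cells in LPS+RT against LPS (-0.22). The mean over clusters, chosen after seeing the data, turned Hk2 in T cell-like cells in LPS against PBS (-0.22). It also turned Slc2a3 in neutrophil-like cells in LPS+RT against PBS+RT (0.064), where the mean rested on cluster 28 alone. That cluster held 12.5% of the class in LPS+RT. Without cycling cells 26 of 138 pairs were higher in LPS than in PBS, in 8 classes, against 12.1% of all pairs. A minimum of 10 CPM and 10 UMIs gave 22 of 225 pairs lower for LPS against PBS (15.8% of all pairs). It gave 14 of 190 higher for PBS+RT against PBS (16.7%). A minimum of 50 CPM gave 7 of 130 lower for LPS against PBS (11%) and 4 of 128 higher for LPS+RT against LPS (6.11%). At most 5% mitochondrial UMIs left 6 of 138 pairs lower for LPS against PBS in 7 classes (11% of all pairs). Naming by own score also took in the cells of unnamed clusters. Fewer classes passed 100 cells without cycling cells and at the 5% limit, and the cause of the other changes was not tested. Depth limits Hk3, Egln3 and Slc2a1 in small classes, where 30 UMIs are the least a call can rest on.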
